A study of Homo sapiens with 18 samples.

Results

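IFITM1, IFITM2, IFITM3 and BST2 are interferon-induced membrane proteins that act on virus particles, described here by their transcripts. They were chosen by name and make up 4 of the 16472 genes in the deposited table. All 4 were among the 13280 genes that passed the filter on low values and were tested. The samples were NIKS cells, a line of normal immortalized human keratinocytes grown on irradiated J2/3T3 mouse fibroblasts. RNA was sequenced from cells that were wild type (WT) or knocked out (KO) for SP100, a protein of PML nuclear bodies. Cells of each genotype were untreated, called 0 h here, or had received human interferon alpha 2a at 25 ng/mL for 12 or 48 h. Each of the 6 groups held 3 biological replicates, which gave 18 libraries.

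The IFITM proteins are small, palmitoylated membrane proteins that stiffen host membranes and block the fusion of enveloped viruses with them. IFITM1 is found mainly at the cell surface, while IFITM2 and IFITM3 are drawn into endosomes and lysosomes by an endocytosis signal in a longer N terminus. BST2, also called tetherin, works at the other end of the viral cycle: it is anchored in the membrane at both ends and holds budding particles on the surface of the cell that made them. Type I interferon induces all of these genes through its receptor, the kinases JAK1 and TYK2, and a transcription factor complex containing STAT2 and IRF9 that binds interferon-stimulated response elements in promoters.

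The promoters are shown as background to induction by interferon. RefSeq promoter windows, 250 bases before to 50 bases after a gene's start on GRCh38.p14, matched 3 of the 4 genes. No window was found for IFITM2, so its promoter was not searched. The core of the interferon-stimulated response element was searched on both strands as GAAANNGAAA, where N is any base, and occurs in 3.6% of 35116 such windows. In each 120-base stretch the core is in capitals, read 5′ to 3′ on the gene's strand. IFITM1 is on the plus strand at chr11:313930-314049, IFITM3 on the minus strand at chr11:320861-320980 and BST2 on the minus strand at chr19:17405680-17405799.
IFITM1: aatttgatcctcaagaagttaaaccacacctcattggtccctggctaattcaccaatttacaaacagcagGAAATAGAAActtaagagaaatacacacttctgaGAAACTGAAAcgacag
IFITM3: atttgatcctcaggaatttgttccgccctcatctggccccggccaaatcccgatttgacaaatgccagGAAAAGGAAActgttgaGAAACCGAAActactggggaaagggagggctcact
BST2: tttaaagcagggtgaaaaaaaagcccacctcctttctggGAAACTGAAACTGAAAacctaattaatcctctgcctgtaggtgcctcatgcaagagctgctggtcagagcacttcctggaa

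Each of these windows held the core at 2 positions, all on the gene's own strand. In IFITM1 the matches began 40 and 6 bases before the start, and in IFITM3 52 and 35 bases before it. The BST2 matches began 130 and 124 bases before the start and overlap each other, so that they form 1 unbroken run. A second motif, the gamma-activated sequence TTCNNNGAA, which occurs in 7.7% of all windows, was matched 12 bases before the IFITM1 start and 136 and 58 bases before the BST2 start. It was not matched in the IFITM3 window. These are matches of letters in a reference genome. No binding was measured, and a link between the matches and the size of the interferon response was not tested.

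The 3 IFITM genes lie side by side on chromosome 11 and are close copies, which bears on every IFITM value. Over aligned coding bases of GENCODE release 29 transcripts, IFITM2 and IFITM3 were identical at 375 of 399 positions (94.0%). IFITM1 was identical to IFITM3 at 297 of 339 positions (87.6%), its first coding base aligning with base 64 of IFITM3. The first 99 coding bases of IFITM3 and IFITM2 are printed because they hold the stretch that IFITM1 lacks. Capitals mark bases that differ from the other gene or have no counterpart in it.
IFITM3: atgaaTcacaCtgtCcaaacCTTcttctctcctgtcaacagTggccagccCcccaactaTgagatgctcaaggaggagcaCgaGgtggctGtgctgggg
IFITM2: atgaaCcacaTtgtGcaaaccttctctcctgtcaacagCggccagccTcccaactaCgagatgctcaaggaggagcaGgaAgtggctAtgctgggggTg

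Beyond that start, a run of 99 bases is identical in all 3 genes, beginning at coding base 175 of IFITM1, 235 of IFITM2 and 238 of IFITM3. It is shown because a short read from it cannot be assigned to 1 of the genes by its sequence.
Shared by IFITM1, IFITM2 and IFITM3: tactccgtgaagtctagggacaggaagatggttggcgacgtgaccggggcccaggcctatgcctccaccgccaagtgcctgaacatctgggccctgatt

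Of all 50-base stretches in 1 chosen transcript per gene, 12.2% in IFITM1, 10.4% in IFITM2 and 17.9% in IFITM3 also occurred in the transcript of another of the 4 genes. The same share was 0% in BST2. With every annotated transcript counted instead, the IFITM1 share was 42.3%, since some IFITM2 transcript models run into IFITM1 exons. At 100 bases and 1 transcript per gene it was 5.6% in IFITM1, 0% in IFITM2 and 5.9% in IFITM3. How shared reads were divided is not given in the sources used here, so the values of single IFITM genes are uncertain to that extent, and their sum is given as well. An antisense transcript also overlaps IFITM3, and the strand setting of the counting is likewise not given.

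The deposited values are RPKM, reads per kilobase of gene scaled to library size, a unit that allows levels of different genes to be compared per length. Errors are SD with n = 3. Log2 changes are limma estimates on log2(RPKM + 1) with their standard error (SE), a scale that understates changes of low genes. A gene was called when its p-value was under 0.05 after Benjamini-Hochberg adjustment across the tested genes of a comparison. Nothing in the labels ties replicates to a shared culture, so p-values measure the spread between these samples, part of which may be technical. Read totals are unknown. Relative depth, recovered from low values, spanned a 1.49-fold range over the libraries. The lowest correlation between replicates was 0.9885. All 12 keratinocyte markers were found and summed to 20575 to 25464 RPKM per library. Single markers differed between genotypes (log2, KO minus WT). Untreated, 1 was called higher in KO (DSG3, 0.295) and 2 lower (SFN, -0.275, COL17A1, -0.195), beside 2.82% and 2.07% of all genes. At 12 h 1 was called higher and 0 lower, beside 1.6% and 2.02%. At 48 h 2 were called higher and 2 lower, beside 2.03% and 2.16%. Their bearing on the IFITM and BST2 values was not tested. The 3 fibroblast markers analysed, of 11 listed, summed to at most 3.5 RPKM. All these markers are human genes, so RNA carried over from the mouse fibroblasts was not tested. The transcript of the targeted gene, SP100, was lower but not lost in KO, with a mean of 15.1 RPKM against 30.0 in untreated WT, 89.1 against 159.5 at 12 h and 59.8 against 127.4 at 48 h. Library names carry 1 line name per genotype, so SP100 loss and other differences between the lines cannot be told apart. No untreated library at 12 or 48 h was analysed, so hours in interferon and hours in culture cannot be told apart either. In bulk RNA, fewer cells with a transcript and less of it per cell cannot be told apart.

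Before interferon the 4 genes differed widely in level. IFITM3 was the most abundant, at 156.81, 163.59 and 163.72 RPKM in WT and 115.99, 110.97 and 110.27 RPKM in KO. IFITM2 followed at 82.1, 82.37 and 80.34 RPKM in WT and 62.28, 52.13 and 49.84 RPKM in KO. IFITM1 was at 7.85, 5.54 and 7.85 RPKM in WT and 4.35, 4.99 and 4.39 RPKM in KO. The 2 endosomal proteins thus had transcripts at a substantial level without added interferon, the cell surface protein had few. BST2 was the lowest, at 0.53, 0.15 and 0.47 RPKM in WT and 0.76, 0.44 and 0.26 RPKM in KO. Neighbours in this order did not overlap in either genotype. The mean of IFITM3 was 1.98 times that of IFITM2 in WT, that of IFITM2 was 11.5 times that of IFITM1, and that of IFITM1 was 18.5 times that of BST2.

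**Figure D1:**
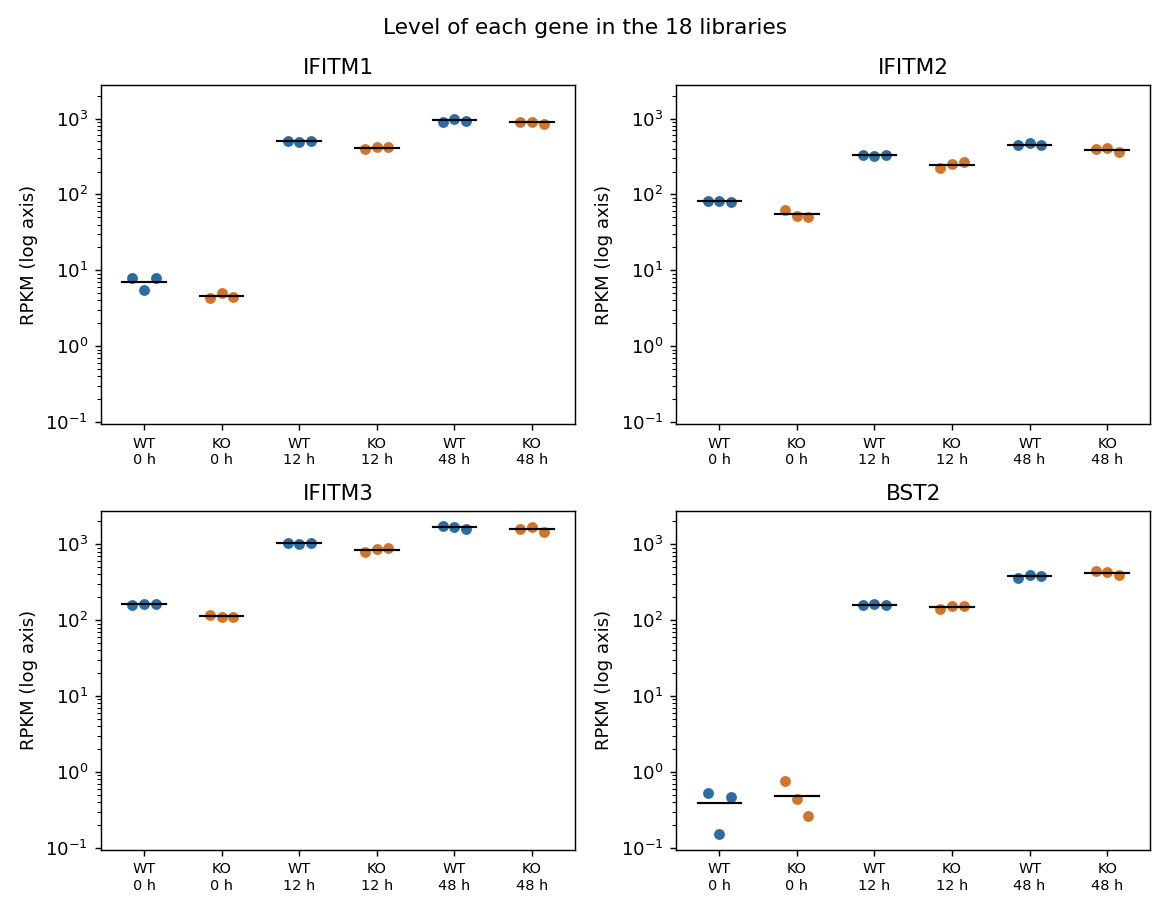
RPKM on a log axis for each gene, with 1 point per library and a bar at the mean of the 3 libraries of a group (blue WT, orange KO). BST2 and IFITM1 rise from below 10 RPKM to over 100 RPKM, IFITM2 and IFITM3 start at 49.8 RPKM or above, and the KO points of the IFITM genes lie below the WT points at 0 and 12 h.

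After 12 h of interferon all 4 genes rose in both genotypes, and the changes of IFITM1 and BST2 were among the highest of all genes tested. IFITM1 reached 503.85, 493.66 and 506.12 RPKM in WT and 393.15, 423.36 and 416.29 RPKM in KO. BST2 reached 157.85, 162.12 and 160.53 RPKM in WT and 140.47, 151.98 and 156.01 RPKM in KO. The untreated and treated libraries lay far apart for both. IFITM3 reached 1050.68, 1019.31 and 1041.15 RPKM in WT and 798.03, 862.25 and 889.87 RPKM in KO. IFITM2 reached 329.3, 316.36 and 331.51 RPKM in WT and 225.86, 250.51 and 264.81 RPKM in KO. BST2 and IFITM1, the lowest before interferon, gained the most in relative terms, while IFITM3 gained the most in RPKM.

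In WT at 12 h the log2 change was 6.88 ± 0.107 (SE) for BST2, 5.97 ± 0.087 for IFITM1, 2.68 ± 0.052 for IFITM3 and 1.98 ± 0.070 for IFITM2. Ordered by log2 change among all genes tested, BST2 was at place 8, IFITM1 at 12, IFITM3 at 65 and IFITM2 at 103. BST2 passed the filter on low values only through its interferon-treated libraries. A BST2 call against untreated cells is therefore not independent of the filter in either genotype. Such calls, and the place of BST2 in the order, are description only. The highest of the 4 adjusted p-values (limma) was 1.1e-12, that of IFITM2. As a ratio of mean RPKM, IFITM1 was 70.8-fold, IFITM3 6.43-fold and IFITM2 3.99-fold above untreated WT. In this comparison 15.1% of all genes were called higher and 29.8% lower. In KO the log2 change was 6.67 for BST2, 6.21 for IFITM1, 2.91 for IFITM3 and 2.16 for IFITM2, with the same SEs, against 16% of all genes called higher and 32.8% lower. The median over the 4 genes was 4.32 in WT and 4.56 in KO, beside medians of -0.09 and -0.10 over all genes tested.

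At 48 h the levels were higher again. IFITM1 stood at 904.81, 997.22 and 935.54 RPKM in WT and 910.12, 906.24 and 851.05 RPKM in KO. IFITM3 stood at 1737.41, 1702.5 and 1585.73 RPKM in WT and 1591.2, 1678.43 and 1444.7 RPKM in KO. IFITM2 stood at 446.89, 470.53 and 444.69 RPKM in WT and 392.42, 409.47 and 364.15 RPKM in KO. For each of these genes, every library at 48 h was above every library of its genotype at 12 h. BST2 stood at 362.84, 397.58 and 377.95 RPKM in WT and 437.97, 431.89 and 392.23 RPKM in KO, likewise without overlap with 12 h. How many of all genes tested were separated in this way was not computed.

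Against untreated cells, the log2 change at 48 h in WT was 8.11 for BST2, 6.89 for IFITM1, 3.37 for IFITM3 and 2.46 for IFITM2, all called (limma, highest adjusted p 7.57e-14). BST2 was then at place 3 of all genes tested, IFITM1 at 7, IFITM3 at 35 and IFITM2 at 53. As at 12 h, the BST2 calls in WT and in KO are not independent of the filter, and they and its place are description only. Only 6.52% of all genes were called higher and 6.3% lower. In KO the changes were 8.16, 7.32, 3.79 and 2.81 in the same order of genes, where 5.9% of all genes were called higher and 7.42% lower. The size of the BST2 change depended on the constant added before taking logs, because its untreated level was below 1 RPKM: with 0.1 in place of 1, WT gave 8.48 at 12 h and 9.73 at 48 h, and KO gave 8.08 and 9.58.

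**Figure D2:**
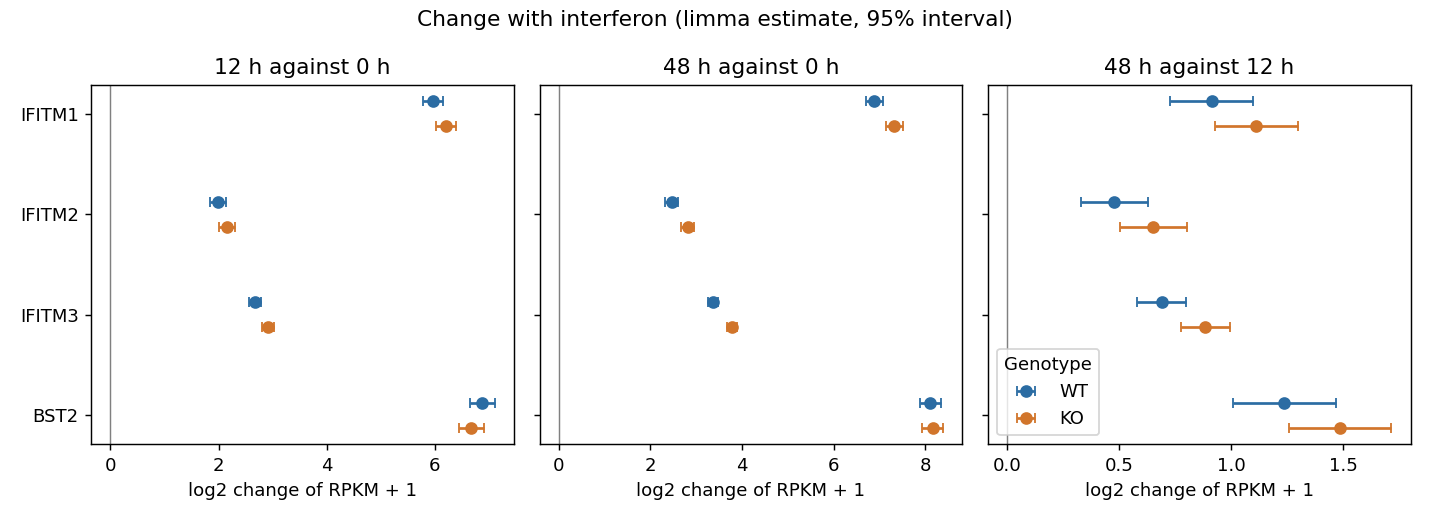
Log2 change of RPKM + 1 with interferon (points, limma estimate) and its 95% interval (bars) for WT (blue) and KO (orange), at 12 h and 48 h against untreated and at 48 h against 12 h. All intervals lie above 0; BST2 and IFITM1 changed by about 6 to 8 log2 units against untreated cells and IFITM2 and IFITM3 by about 2 to 4.

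From 12 to 48 h all 4 genes rose further in both genotypes. The step was largest for BST2, with a log2 change of 1.24 ± 0.107 (SE) in WT and 1.49 ± 0.107 in KO. It was 0.91 in WT and 1.11 in KO for IFITM1, 0.69 and 0.88 for IFITM3, and 0.48 and 0.65 for IFITM2 (limma, highest adjusted p 8.18e-05). Calls were frequent in these comparisons, with WT showing 24.6% of all genes higher and 11.3% lower, and KO 27.7% and 14%. By log2 change BST2 was at place 47 in WT and 27 in KO, and IFITM1 at 146 and 90. The later rise brought BST2 from the lowest of the 4 genes to the level of IFITM2. In WT at 48 h the mean of IFITM2 was still 1.2 times that of BST2 without overlap, whereas in KO BST2 was 1.08 times IFITM2 and the libraries overlapped. IFITM3 stayed the most abundant throughout, and IFITM1 moved from the third place to the second by 12 h.

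With the 3 IFITM genes added together, a measure that reads moved between the copies change little, WT held 250 ± 2.86 RPKM untreated, 1864 ± 30.1 at 12 h and 3075 ± 103 at 48 h. KO held 172 ± 9.60, 1508 ± 80.7 and 2849 ± 172 RPKM. The sum was 7.45-fold above untreated at 12 h and 12.3-fold at 48 h in WT, and 8.78-fold and 16.6-fold in KO. An exact permutation test of 3 against 3 libraries cannot give a two-sided p below 0.1, and each of these comparisons gave 0.1 (0.113 after adjustment over 9 pairs).

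The make-up of the sum changed with interferon in both genotypes. IFITM1 went from 2.83% of it in untreated WT to 26.9% at 12 h and 30.8% at 48 h, and from 2.67% to 27.3% and 31.2% in KO. The share of IFITM2 went from 32.6% to 17.5% and 14.8% in WT, and from 31.8% to 16.4% and 13.6% in KO. The share of IFITM3 went from 64.5% to 55.6% and 54.5% in WT and from 65.5% to 56.4% and 55.1% in KO. In untreated cells, then, nearly all IFITM transcripts per length belonged to the endosomal proteins, and after interferon 26.9% to 31.2% belonged to the cell surface protein. How shared reads were divided would move these shares, and that was not tested.

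**Figure D3:**
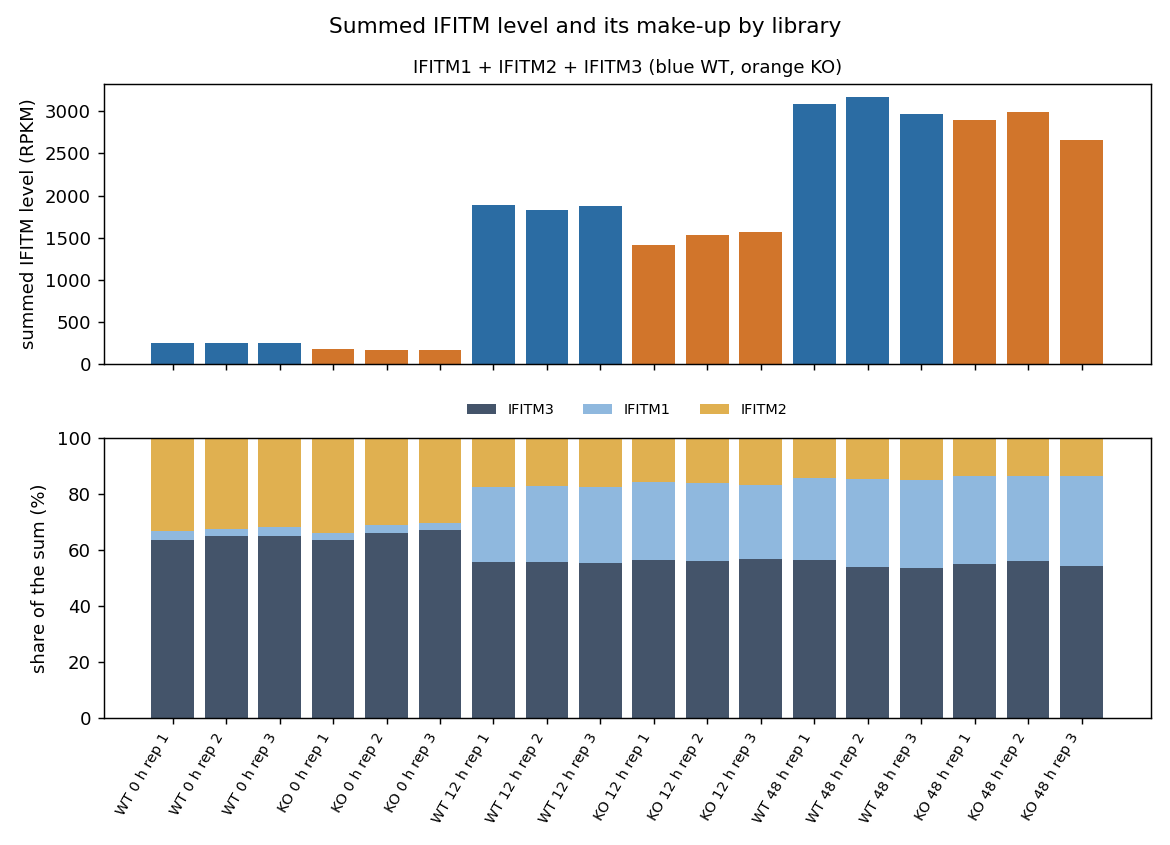
Upper bars give the summed level of the 3 IFITM genes in RPKM for each of the 18 libraries (blue WT, orange KO); lower bars give the percent of that sum held by IFITM3, IFITM1 and IFITM2. The sum rises from about 250 RPKM or less to 1417 RPKM or more at 12 h, and the share of IFITM1 from about 3% to over 26%.

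In untreated cells the 3 IFITM genes were lower in KO than in WT. IFITM1 in KO was at 64.6% of the WT mean, IFITM2 at 67.1% and IFITM3 at 69.7%. No KO library reached the lowest WT library for any of the 3, and the share of all genes separated in this way was not computed. The log2 difference, KO minus WT, was -0.52 ± 0.087 (SE) for IFITM1 (limma, adjusted p 0.00174), -0.57 ± 0.070 for IFITM2 (adjusted p 9.21e-05) and -0.52 ± 0.052 for IFITM3 (adjusted p 8.83e-06). BST2 was between 0.15 and 0.76 RPKM in all 6 untreated libraries, a range in which log2(RPKM + 1) leaves little room for a difference, so this comparison says little about BST2. Its fitted difference was 0.10, with a 95% interval of -0.13 to 0.33 (adjusted p 0.686), and its libraries overlapped. Of all genes tested, 2.82% were called higher in KO and 2.07% lower. The IFITM1 call was lost when only the 6 untreated libraries were fitted (adjusted p 0.12); the calls of IFITM2 and IFITM3 held there.

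At 12 h the fitted differences of the IFITM genes were smaller than at 0 h, but none of these changes was called (the 12 h interaction below). IFITM2 in KO was at 75.9% of the WT mean (log2 difference -0.40 ± 0.070, limma, adjusted p 0.00332) and IFITM3 at 82.0% (-0.29 ± 0.052, adjusted p 0.00382). IFITM1 was also at 82.0%, with a log2 difference of -0.29 ± 0.087 that did not pass (adjusted p 0.0893). It passed when only the 6 libraries at 12 h were fitted (adjusted p 0.0179) and when WT replicate 2 at 0 h, the lowest IFITM1 value of untreated WT, was left out (adjusted p 0.00289). BST2 was at 93.3% of WT, with a log2 difference of -0.10 and a 95% interval of -0.33 to 0.13 (adjusted p 0.701). For all 4 genes every KO library lay below every WT library at this time, for BST2 narrowly (highest KO 156.01, lowest WT 157.85 RPKM). The share of all genes separated in this way was not computed. Of all genes 1.6% were called higher in KO and 2.02% lower.

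At 48 h none of the 4 genes was called between genotypes, while 2.03% of all genes were called higher in KO and 2.16% lower. IFITM1 in KO was at 94.0% of the WT mean and IFITM3 at 93.8%, with overlapping libraries and log2 differences of -0.09 each (95% intervals -0.27 to 0.10 and -0.20 to 0.02). IFITM2 was at 85.6% without overlap, with a log2 difference of -0.22 (interval -0.37 to -0.08, adjusted p 0.0939). Without KO replicate 1 at 0 h its adjusted p was 0.0256. How many of all genes lacked overlap between genotypes at 48 h was not computed. BST2 was at 110.9% of WT with overlap, and its log2 difference was 0.15 (interval -0.08 to 0.38, adjusted p 0.563). At an unadjusted p under 0.05, 1 of the 4 genes passed, IFITM2 (p 0.00568), and 16.4% of all genes did.

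**Figure D4:**
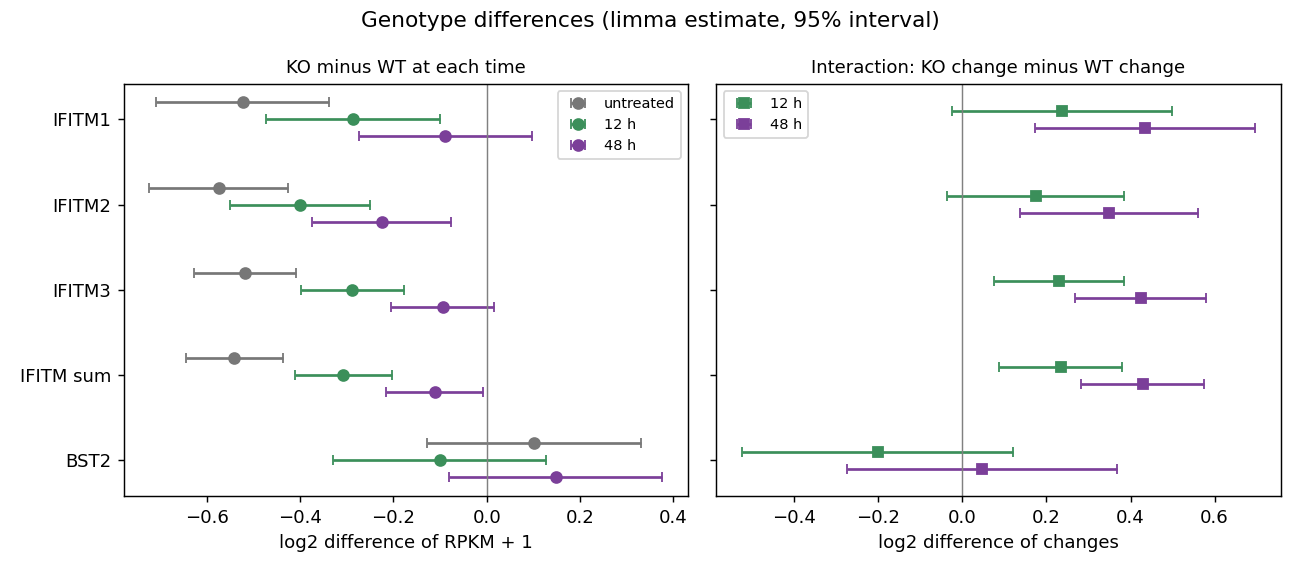
Left, the log2 difference of RPKM + 1, KO minus WT, with its 95% interval at 0, 12 and 48 h for each gene and for the sum of the 3 IFITM genes. Right, the interaction, which is the change with interferon in KO minus that in WT; the IFITM points lie at 0.17 to 0.43, and BST2 has an interval that spans 0 at both times.

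The test of whether interferon changed a gene differently in KO and WT, the interaction, uses the same untreated libraries as the comparisons above and is not independent of them. At 48 h the interaction was 0.42 ± 0.073 (SE) for IFITM3 (limma, adjusted p 0.0393), meaning a larger log2 rise in KO, which started lower. This call was close to the threshold. It was kept under 6 of 25 other settings and lost under 19, with values from 0.38 to 0.48 and adjusted p-values from 0.00633 to 0.187. Among libraries of this comparison it was lost without any 1 of WT replicates 1, 2 or 3 at 0 h, WT replicates 2 or 3 at 48 h, KO replicates 1, 2 or 3 at 0 h, or KO replicates 1 or 2 at 48 h. IFITM1 had an interaction of 0.43 ± 0.123 and IFITM2 of 0.35 ± 0.099, neither called (adjusted p 0.535 for each). Without WT replicate 2 at 0 h IFITM1 was called, at 0.58 (adjusted p 0.00262). BST2 had 0.05 ± 0.152 (adjusted p 0.971). At 12 h the interactions were 0.24 for IFITM1, 0.17 for IFITM2, 0.23 for IFITM3 and -0.20 for BST2, none called. At an unadjusted p under 0.05, 1 of the 4 genes passed at 12 h, IFITM3 (limma, p 0.00637), and 5.75% of all genes did. Interactions were rare over all genes, with 0.0753% called at 12 h and 0.0828% at 48 h.

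When the 3 IFITM rows were replaced by their sum in the same fit, the sum was lower in KO by a log2 difference of -0.54 ± 0.049 (SE) untreated (limma, adjusted p 3.13e-06) and -0.31 at 12 h (adjusted p 0.00135). At 48 h the difference was -0.11, with an interval of -0.21 to -0.01 (adjusted p 0.26). The untreated and 12 h calls were kept under all 25 other settings tried for the sum. Its interaction at 48 h was 0.43 ± 0.069 (adjusted p 0.0174), kept under 15 of those settings and lost under 10, with an adjusted p of up to 0.104. IFITM and BST2 levels could also be set against each other within a library, a measure chosen after the data were seen. The log2 ratio of the summed IFITM level to BST2 was lower in KO by 0.21 at 12 h (means 3.33 and 3.54) and by 0.26 at 48 h (means 2.76 and 3.02), without overlap between genotypes. The exact permutation p was 0.1 at each time, the smallest this design can give.

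Markers of cell types other than keratinocytes moved in part with the groups. Of 5 leukocyte markers, CD68 and CD14 were analysed, and their sum was 24.1 to 25.3 RPKM in untreated WT, 53.1 to 58.9 at 12 h and 37.7 to 43.2 at 48 h. In KO it was 19.6 to 21.1, 45.0 to 51.5 and 35.9 to 40.4 RPKM. CD68, a lysosomal protein that is also made outside leukocytes, accounted for this: it rose by 1.39 in WT at 12 h and was lower in untreated KO by a log2 difference of -0.35 (limma, adjusted p 0.0101). CD14 fell by 0.84 in WT at 12 h. For plasmacytoid dendritic cells, which carry BST2 without stimulation, TCF4 was the only 1 of 4 markers analysed, at 3.08 to 6.70 RPKM over all libraries, and it was not called between genotypes or with interferon. The melanocyte marker PMEL, 1 of 4 listed, was at most 1.57 RPKM. The summed fibroblast markers were at 1.84 to 3.5 RPKM, and COL1A1, a collagen chain among them, was called higher in KO at 12 h (0.53, adjusted p 0.00421) and not in WT (0.15, adjusted p 0.394) or between genotypes. The part of such cells in the IFITM and BST2 values was not tested.

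The genes whose pattern was most like that of each of the 4 were sought among 12815 other genes with a symbol, by Pearson's r of log2(RPKM + 1) over the 18 libraries. These libraries share the same treatment steps, so the r values describe only the profile. IFITM1 was most like SHISA5 (0.9981), IFI6 (0.998) and IFI27 (0.9976), and BST2 was most like the same genes, with 0.9965, 0.9963 and 0.9952. A high r does not mean a rise of like size. SHISA5 had WT means of 108.8 RPKM untreated, 229.7 at 12 h and 255.1 at 48 h, a much smaller relative rise. IFI6 and IFI27 encode small mitochondrial or membrane proteins induced by interferon, and IFI27 reached a mean of 2780 RPKM in WT at 48 h from 1.75 untreated. IFITM3 was most like HLA-B (0.9968), HLA-C (0.9951) and LGALS3BP (0.9913), and IFITM2 most like HLA-C (0.9899), HLA-B (0.9895) and LGALS3BP (0.9842). HLA-B and HLA-C are heavy chains of the class I molecules that present peptides. In untreated cells HLA-B was at a mean of 11.3 RPKM in KO and 15.1 in WT, and IFI6 at 1.15 and 1.62, both called lower in KO (log2 differences -0.39 and -0.28; limma, adjusted p 0.00237 and 0.035). IFI27 (0.737 and 1.75 RPKM, adjusted p 0.0594) and HLA-C (29.8 and 33.7 RPKM, adjusted p 0.141) were not called there, nor were SHISA5 and LGALS3BP. None of these 6 genes was called between genotypes at 12 or 48 h, which does not show that they were equal. Of all genes tested, 2.07% were called lower in KO untreated, 2.02% at 12 h and 2.16% at 48 h. Called higher were 2.82%, 1.6% and 2.03%. Among the 4 genes themselves r was highest between IFITM1 and BST2 (0.9974) and lowest between IFITM2 and BST2 (0.9794).

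Other host factors that act on viral entry, envelopes or release at membranes were followed as a list of 14 genes, of which 9 were tested. In WT at 12 h 5 were called higher and 1 lower, beside 15.1% of all genes called higher and 29.8% lower, and the median log2 change was 0.47 against -0.09 over all genes. LGALS3BP, a secreted glycoprotein, rose by 1.38, NCOA7, an interferon-induced endolysosomal factor, by 1.3, and CNP, which binds assembling retroviral particles, by 1.15. LY6E, a surface protein that limits coronavirus entry, rose by 1.06, from a mean of 346 to 722 RPKM. MARCHF8, a ubiquitin ligase that removes viral glycoproteins from the surface, fell by 0.30 (limma, adjusted p 0.037), a call lost with median-of-ratios scaling (adjusted p 0.12). At 48 h the same 5 genes that had risen were called higher and none lower, beside 6.52% and 6.3% of all genes. They included ZMPSTE24, a protease known to act together with IFITM proteins, with 0.47 at 12 h and 0.31 at 48 h.

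The later course differed among these genes. LY6E rose by a further 0.54 from 12 to 48 h in WT and 0.62 in KO. CNP fell over the same interval by 0.75 in WT and 0.69 in KO, and ZMPSTE24 by 0.16 and 0.31. LGALS3BP rose by 0.23 and 0.24, calls that were lost with median-of-ratios scaling (adjusted p 0.0974 and 0.0772). In KO 5 genes of the list were called higher at 12 h and 5 at 48 h, beside 16% and 5.9% of all genes. MARCHF8 was not called in KO at 12 h (0.15, adjusted p 0.284). The gene called lower there was MARCHF2, a related ubiquitin ligase (-0.27, limma, adjusted p 0.0439), a call lost with median-of-ratios scaling (adjusted p 0.184). None of the 9 was called between KO and WT at any time, beside at most 2.82% of all genes called higher and 2.16% lower. This does not show that they were equal, and without WT replicate 3 at 0 h 1 was called in untreated cells.

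A list of 17 genes that modify IFITM proteins or control the traffic of IFITM and BST2 proteins held 14 tested genes, all expressed in untreated WT at a mean of at least 8.47 RPKM. At 12 h 3 were called higher in both WT and KO: NEDD4, the ubiquitin ligase that sends IFITM3 to degradation (0.34 in WT), ABHD16A, which removes palmitate (0.35), and VCP, an ATPase of protein sorting (0.24). Among those called lower in WT were AP2B1, a subunit of the endocytic adaptor that binds the IFITM3 signal (-0.31), and ZDHHC7, a palmitoyltransferase (-0.28). Beside the 15.1% higher and 29.8% lower over all genes in WT, and 16% and 32.8% in KO, these counts are near the background and are no result about the list. The split of these calls depended on scaling, since 3 higher and 4 lower in WT became 4 and 2 with median-of-ratios scaling, and 3 and 5 in KO became 5 and 1. At 48 h AP2M1 was the only gene called in either genotype, with changes of -0.22 in WT and -0.19 in KO, beside 6.3% and 7.42% of all genes called lower. The KO call was lost when only the 6 libraries compared were fitted (limma, adjusted p 0.0855) and without KO replicate 3 at 48 h (adjusted p 0.0519). The WT count was 2 when only the 6 libraries compared were fitted and without KO replicate 2 at 12 h. No gene of this list was called between genotypes with all libraries, beside at most 2.82% of all genes called higher and 2.16% lower. Without WT replicate 2 at 12 h 1 was called at 12 h, and without KO replicate 1 at 48 h 1 was called at 48 h. The relatives IFITM5 and IFITM10 were not analysed here.

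Components of type I interferon signalling made up a list of 9 genes, of which 8 were tested. In WT at 12 h 5 were called higher and 1 lower, beside 15.1% and 29.8% of all genes. Among the higher were USP18, the feedback inhibitor of the receptor (5.07), IRF9 (3.36) and STAT2 (2.34). The lower one was IFNAR2, a receptor chain (-0.50). From 12 to 48 h in WT, 4 were called lower and 2 higher, beside 11.3% and 24.6% of all genes: USP18 fell by 0.99, IRF1 by 0.66, STAT2 by 0.45 and JAK1 by 0.36. The higher ones were IFNAR2 (0.34) and IFNAR1 (0.22), the latter not called with median-of-ratios scaling (adjusted p 0.192). In KO the same 4 genes were called lower from 12 to 48 h, and IFNAR2 was called higher, beside 14% and 27.7% of all genes. The median of this list from 12 to 48 h in WT was -0.27, beside 0.80 for the 4 membrane factors and 0.07 for all genes, and this difference was not tested.

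Between genotypes, IRF9 was called in untreated cells. It was at 4.01 ± 1.04 RPKM in KO and 6.12 ± 0.271 in WT, a log2 difference of -0.53 ± 0.113 (SE, limma, adjusted p 0.0109). The difference for IFITM3 was -0.52, and a link between the 2 was not tested. STAT2 differed by -0.03 (interval -0.18 to 0.11) and was not called. USP18 was higher in untreated KO, by 0.32 (adjusted p 0.000629), at 1.87 RPKM against 1.3. Both calls were lost when only the 6 untreated libraries were fitted. At 12 and 48 h none of the 8 was called, beside 1.6% and 2.03% of all genes called higher in KO and 2.02% and 2.16% lower. In untreated cells these shares were 2.82% and 2.07%.

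**Figure D5:**
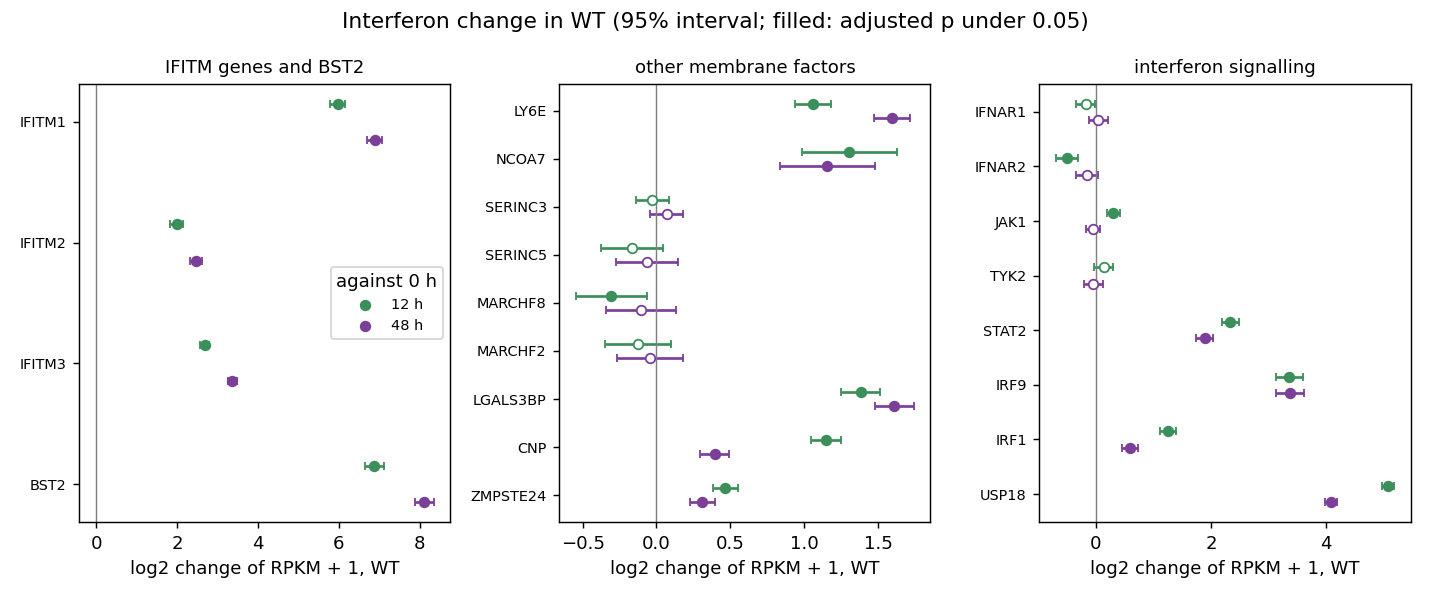
Log2 change of RPKM + 1 in WT at 12 h (green) and 48 h (purple) against untreated with its 95% interval, for the 4 genes, for the 9 tested membrane factors and for the 8 tested signalling genes; filled points passed the adjusted threshold. The horizontal scales differ between panels. The 4 genes and LY6E lie further right at 48 h than at 12 h, while USP18, STAT2 and IRF1 lie further left.

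Genes near the 4 on the chromosome were taken in the order of their RefSeq start positions. Only genes in the deposited table were considered, so closer genes absent from it were passed over. Around the IFITM genes, PSMD13, a proteasome subunit, rose in WT at 12 h by 0.39 and PKP3, a desmosome protein, by 0.43 (limma, adjusted p 7.83e-05 and 0.000555). SIRT3, SIGIRR, PGGHG and B4GALNT4 were not called there. In KO at 48 h PGGHG (0.62, adjusted p 0.0258) and B4GALNT4 (0.97, adjusted p 0.00953) were called higher than in untreated KO, and B4GALNT4 also rose from 12 to 48 h (0.64, adjusted p 0.0355), neither of them called in WT. In KO 5.9% of all genes were called higher at 48 h than untreated, and 27.7% from 12 to 48 h. None of these 6 genes was called between genotypes at any time, where at most 2.82% of all genes were called higher and 2.16% lower. Around BST2, SLC27A1 fell at 12 h by 0.81 in WT, MVB12A by 0.23 (limma, adjusted p 0.0459) and PGLS-DT by 0.66, while GTPBP3, ANO8 and DDA1 were not called. Beside 15.1% of all genes called higher and 29.8% lower in WT at 12 h, these calls are no result about the flanking genes. The 4 genes themselves rose by 1.98 or more in WT at 12 h.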

How the data were processed

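Values were RPKM per gene, deposited by the authors as 1 table of 16472 Ensembl gene IDs in 18 libraries. Libraries were stranded mRNA, per the labels' protocols. Per the submitters' processing notes, cutadapt, STAR 2.6.1, RSEM 1.3.0, limma 3.50.3 and hg19 were used; their roles, the annotation, the strand setting and the gene filter are not given in the sources used here. No column was left unused (0).

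RPKM are not counts, so values were fitted as log2(RPKM + 1) in limma 3.58.1 (R 4.3.3), with means of the 6 groups over all 18 libraries and a variance trend. A gene was tested, in 11 comparisons, if 3 or more libraries had it at 1 RPKM or above. The script was tested on simulated data. Sums were compared by two-sided exact permutation tests. The 4 genes, the gene lists and the tests were chosen with earlier results of these data known. Genes named were the 4, SP100, up to 4 called members of each list per comparison or any the text counts, the 3 most like each of the 4, and flanking genes. Alternatives were a pseudocount of 0.1, median-of-ratios scaling, no filter, a filter on a mean RPKM under 5, the comparison's libraries alone, no variance trend, a replicate block, the IFITM genes summed, and each library left out. Promoters are from RefSeq (GRCh38.p14) and coding sequences from GENCODE release 29 (GRCh38); neither build is that of the table, so no value was read by coordinate. A further listed signalling gene is not reported here.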

Additional observations from a re-analysis of the deposited data

Results flagged for a closer look

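The change with 48 h of interferon differed between genotypes for IFITM3, by an interaction of 0.424 on the log2(RPKM + 1) scale (SE 0.073, limma, adjusted p 0.0393). The log2 rise was 3.79 in KO and 3.37 in WT, and all 3 untreated KO libraries lay below all 3 untreated WT libraries. How many of all genes were separated like this was not computed. For USP18, the feedback inhibitor of the interferon receptor, the interaction at 48 h was -0.382 (SE 0.067, limma, adjusted p 0.0426), with rises of 3.70 in KO and 4.08 in WT. Untreated USP18 was at 1.87 RPKM in KO and 1.3 in WT. Both adjusted p-values lay close to the threshold.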

How the results depend on the processing

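The increases of all 4 genes in the 6 comparisons with interferon kept direction and call under every setting tried. For BST2 the calls against untreated cells are description only, since it passed the filter only through treated libraries. Between genotypes, IFITM2 and IFITM3 kept their calls in untreated cells and at 12 h. With only the libraries of the comparison, IFITM1 in untreated cells was -0.523 and no longer called, and at 12 h -0.287 and called. IFITM1 at 12 h was also called without WT replicate 2 at 0 h (-0.287; leaving out each library in turn gave -0.308 to -0.255), as was its interaction at 48 h (0.58; range 0.361 to 0.58). IFITM2 at 48 h was called without KO replicate 1 at 0 h (-0.225; range -0.263 to -0.179). The IFITM3 interaction at 48 h lost its call with no filter (0.424), median-of-ratios scaling (0.431), no variance trend (0.424), the comparison's libraries alone (0.424) and the replicate block (0.424, adjusted p 0.0929); leaving out 1 library gave 0.375 to 0.483, and 14 of these lost it, between 0.375 and 0.447. BST2, near 0 in these comparisons and never called, changed sign in untreated KO against WT without WT replicate 2 (-0.026) or KO replicate 1 (-0.027; range -0.027 to 0.214), and in the interaction at 48 h with a pseudocount of 0.1 (-0.151) or without 0 h libraries WT 1 (-0.032), WT 3 (-0.003) or KO 3 (-0.066; range -0.066 to 0.175). With median-of-ratios scaling the summed IFITM ratio was 7.97 in WT and 9.47 in KO at 12 h, and 1.55 for 48 against 12 h in WT. The USP18 interaction was lost under most settings.

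Same-numbered libraries did not deviate together (median correlation -0.013, from -0.097 to 0.157; 5 of 18 libraries were closest to their own number). With the replicate number as a block, genes called were 533 against 650 for untreated KO against WT, 394 against 481 at 12 h and 465 against 556 at 48 h, and among the 4 genes only the IFITM3 interaction lost its call.

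Counts over all genes moved by more than 1.5 times with only the comparison's libraries: 945 for KO at 48 h against 1770, 306, 213 and 250 for KO against WT at 0, 12 and 48 h against 650, 481 and 556, and 6 and 3 for the interactions against 10 and 11. Leaving out 1 library gave at least 1159, 390, 311, 6 and 7 where such a shift occurred. Median-of-ratios scaling moved the share of calls that were higher. At 12 h it was 33.6% before and 51.6% after for WT, and 32.7% and 50.9% for KO. For 48 against 12 h the shares were 68.5% and 46.9% (WT) and 66.4% and 47.4% (KO), and for untreated KO against WT 57.7% and 47.2%. The cause of these shifts was not tested. With read totals unknown, no counting error is given for BST2 below 1 RPKM.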
